A study of Mus musculus with 9 samples.

Results

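Bone marrow-derived Mϕs grow and survive on colony-stimulating factors, and the genes described here are the factor CSF-1, its receptor and the receptors of the related hematopoietic growth factors. They are 9 genes of the 53379 in the deposited table, chosen by name: Csf1, Csf1r, Csf2ra, Csf2rb, Csf2rb2, Il3ra, Csf3r, Kit and Flt3. The data are mRNA-seq of cultures from 3 C57BL/6 mice in 9 libraries. Every culture was first kept for 3 days in 10 ng/ml MCSF (CSF-1), and every culture stayed in 10 ng/ml MCSF for the 4 days that followed. The 3 control libraries received no other cytokine in those 4 days, the 3 IL-4 libraries received 10 ng/ml IL-4, and the 3 IL-6 libraries received 100 ng/ml IL-6. The doses and times are those of the labels. The study's methods give a higher dose of IL-4, and its figure legends give other doses of both cytokines and a shorter treatment. Age and sex of the mice are not stated, and no sort for Mϕs is described, so the values are those of whole cultures. In such bulk samples, fewer cells of a type and less RNA per cell cannot be told apart.

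CSF-1 binds CSF1R, a receptor tyrosine kinase that gives Mϕs their survival and proliferation signal. GM-CSF and IL-3 bind receptors with a private α chain, encoded by Csf2ra for GM-CSF and Il3ra for IL-3, and a shared β chain, encoded by Csf2rb, which signals through JAK2 and STAT5. Mice carry an additional β gene, Csf2rb2, whose product pairs with the IL-3 α chain. Csf3r encodes the G-CSF receptor, best known from neutrophils and their precursors, and Kit and Flt3 encode the receptor tyrosine kinases of early progenitors, with Kit also kept by mast cells. IL-4 signals mainly through STAT6 and IL-6 mainly through STAT3. The libraries therefore allow a question of how either cytokine changed the receptors for other growth factors while the added CSF-1 stayed the same.

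Levels are given as FPKM, fragment counts normalized to exon length and library size, which allows genes of different length to be compared. In control Mϕs Csf1r was by far the highest of the 9 genes, at 631 ± 104 FPKM (SD, n = 3), and ranked 47 of 53379 genes. Csf3r (108 ± 8.47 FPKM) and Csf2ra (100.5 ± 7.12 FPKM) came next, and their libraries overlapped. The β genes Csf2rb (69.6 ± 8.92 FPKM) and Csf2rb2 (59.7 ± 8.77 FPKM) followed. Their ranges overlapped, with Csf2rb above Csf2rb2 within each library. Il3ra (15.3 ± 2.59 FPKM) and Csf1 (5.33 ± 0.885 FPKM) were lower, and Kit (0.838 ± 0.0643 FPKM) and Flt3 (0.535 ± 0.0200 FPKM) were at the bottom. In the IL-6 libraries Csf2rb moved up to the second place at 183 ± 16.8 FPKM. Csf2ra, already behind Csf3r by its control mean, dropped behind both β genes. In the IL-4 libraries the range of Csf2ra overlapped with those of Csf1r and Csf2rb. Within each IL-4 library, Csf1r was still above Csf2ra and Csf2ra above Csf2rb. Kit and Flt3 were the only genes of the 9 measured by fewer than 300 fragments in every library, with 31 to 284 and 53 to 119 fragments. The other genes had at least 427 fragments in each library.

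**Figure D1:**
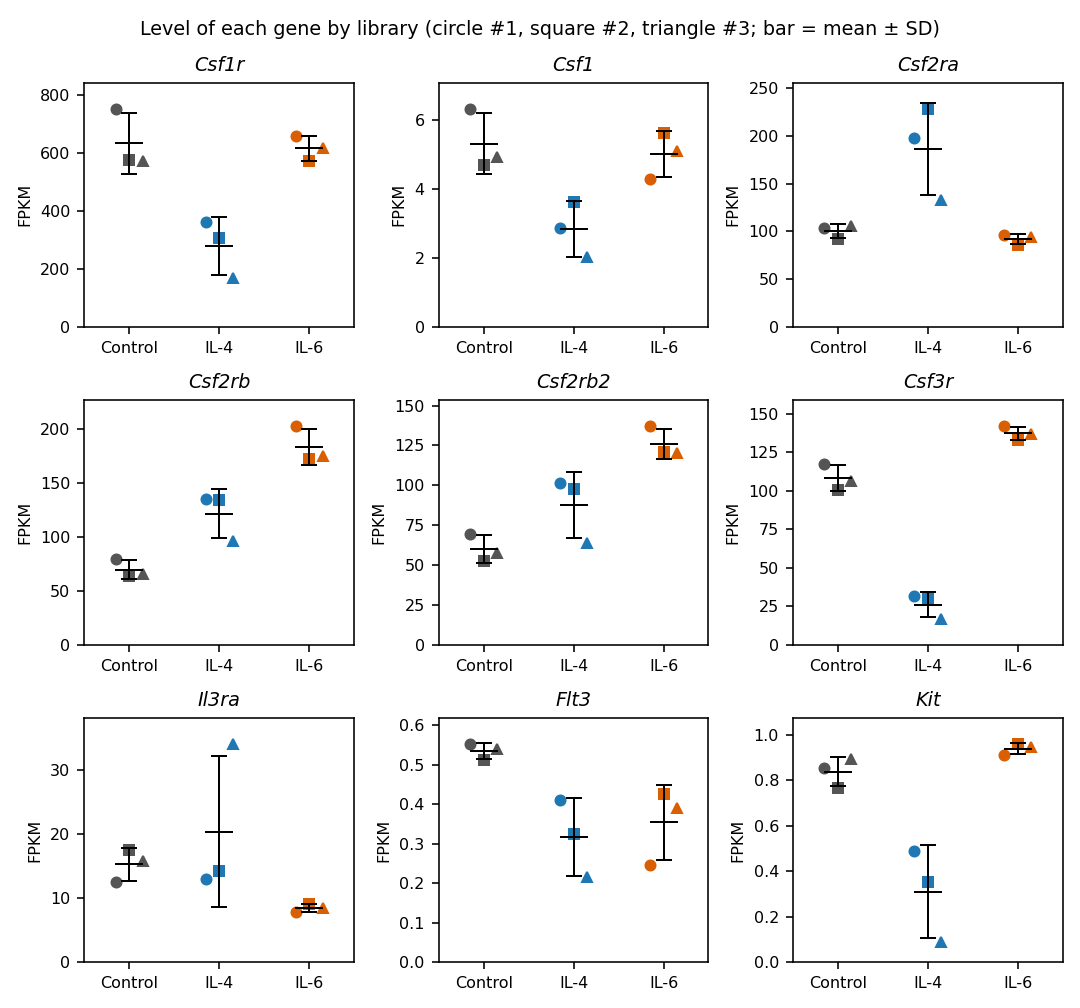
Level of the 9 genes in FPKM (vertical axis, from 0) in each control, IL-4 and IL-6 library, with the symbol giving the replicate number and the bars the mean ± SD of 3 libraries. Csf3r lies at 16.3 to 31.3 FPKM with IL-4 and above 100 FPKM elsewhere, and Csf2rb lies at 172 to 203 FPKM with IL-6.

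For the comparisons, limma was run on FPKM after a pseudocount of 0.1 and a log2 transform, with p-values adjusted by the Benjamini-Hochberg method over 12824 genes with a mean of at least 0.5 FPKM. Calls needed both an adjusted p below 0.05 and a change of 1 or more on the log2 scale. Flt3 fell below the filter, so 8 of the 9 genes were tested, and the values of Flt3 come from the fit without a filter. In the IL-4 libraries, 3 of the 8 were called lower than control (Csf1r, Csf3r and Kit) and 0 were called higher, where 13.9% of all genes were called, 8.89% lower and 5.02% higher. By an adjusted p alone, 6 of the 8 differed from control, against 24.8% of all genes. With IL-6, 2 of the 8 were called higher (Csf2rb and Csf2rb2) and 0 lower, where 5.38% of all genes were called, 3.49% higher and 1.89% lower, and the adjusted p alone gave the same 2 genes against 8.4% of all genes. Between the cytokines, 3 of the 8 were called higher with IL-6 (Csf1r, Csf3r and Kit) and Il3ra was called lower, where 20.4% of all genes were called. Over all genes the median log2 fold change with IL-4 was -0.20, with 644 called higher and 1140 lower, and after median-ratio rescaling it was -0.01, with 834 and 874. Between IL-6 and IL-4 the median was 0.22 with 1738 higher and 875 lower, and after rescaling 0.02 with 1398 and 1165. Libraries of the groups did not overlap for 7 of the 9 genes between IL-4 and control (40.3% of all genes), for 6 between IL-6 and control (43.2%) and for 8 between the cytokines (56.9%). For each such gene an exact permutation test (two-sided, 3 against 3 libraries) gave p = 0.1, the smallest it can give.

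**Figure D2:**
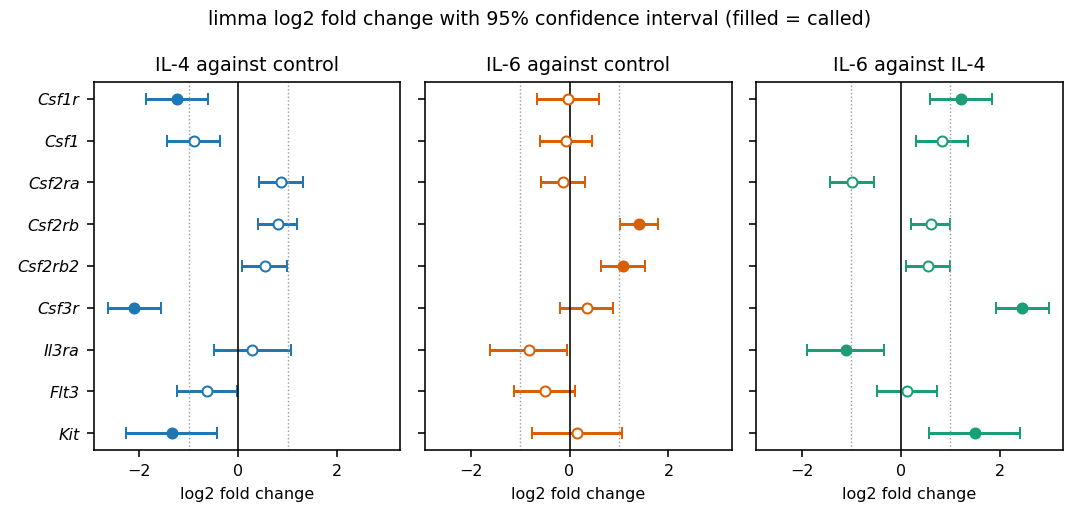
Log2 fold change of each gene (horizontal axis) with its 95% confidence interval from limma in the 3 comparisons, filled where called and with dotted lines at the fold threshold. With IL-4 the CSF-1 and G-CSF receptors lie below 0 and the GM-CSF receptor chains above it, while with IL-6 the β genes lie above 1.

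A split of the libraries by intestinal transcripts and 1 single library touch these values. The labels do not name the origin of the split, and it was not tested. Transcripts of 15 intestinal genes, which are not known from Mϕs, gave 855 to 1170 fragments in the control libraries and IL-4 #1 and 5 to 8 fragments in IL-4 #2, IL-4 #3 and the IL-6 libraries. All control libraries are on one side of this split and all IL-6 libraries on the other, so IL-6 and the set of libraries cannot be told apart in that comparison. Values within each side of the split are therefore given for IL-4 #1 against the controls and for IL-6 against IL-4 #2 and #3. Only the IL-4 group lies on both sides, so a set term in the model is estimated from the IL-4 libraries alone. With it, IL-4 against control is IL-4 #1 against the controls, the same single-library comparison. IL-6 against control then sums IL-6 against IL-4 #2 and #3 and IL-4 #1 against control, and does not separate IL-6 from the set. Library IL-4 #3 also stood apart by gene length. Against the mean of the other IL-4 libraries, its median log2 difference was 0.43 over genes with up to 1500 bases of exon and -0.97 over genes above 6000 bases. For the genes described here the difference was -0.98 for Csf1r, -0.91 for Csf3r, -0.67 for Csf2ra and -1.46 for Kit, and 1.32 for Il3ra. The levels that rest on this library are given below with and without it.

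**Figure D3:**
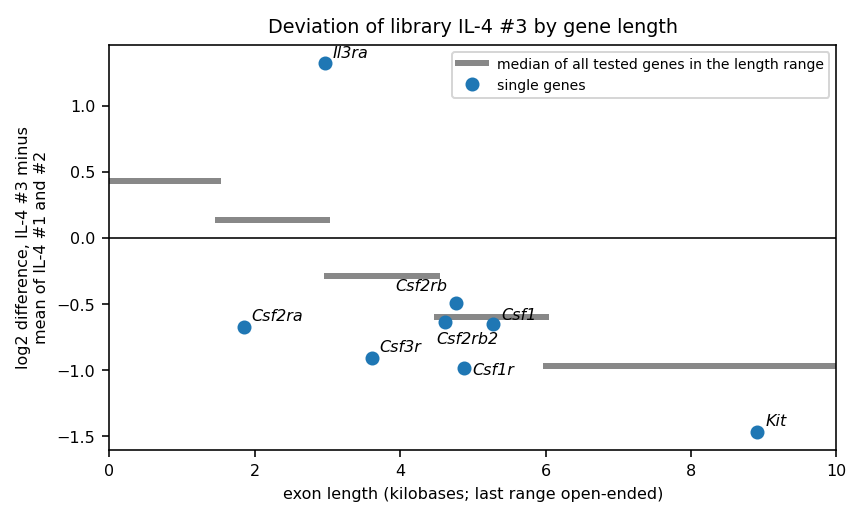
Log2 difference of library IL-4 #3 from the mean of IL-4 #1 and #2 (vertical axis) by exon length in kilobases (horizontal axis), as medians of all tested genes per length range (gray) and for 8 single genes (blue). The medians run from 0.43 for the shortest genes to -0.97 for the longest, and Il3ra lies above the medians at 1.32.

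Csf1r, on chromosome 18 of the mouse genome, encodes the CSF-1 receptor. It stood at 751, 574 and 570 FPKM in the control libraries, 361, 306 and 168 FPKM in the IL-4 libraries and 658, 573 and 614 FPKM in the IL-6 libraries. Every IL-4 library was below every control and IL-6 library, and IL-4 #3 was the lowest. With IL-4 the mean was 2.27-fold lower than control (log2 fold change -1.24 ± 0.27 SE, adjusted p = 0.0123). Without IL-4 #3 the log2 fold change was -0.91 (adjusted p = 0.00226), short of the fold threshold, and with the length trend of each library removed it was -1.03 (adjusted p = 0.00178). With only the IL-4 and control libraries in the fit the adjusted p was 0.0529. With the set entered in the model the log2 fold change was -0.79. That value rests on IL-4 #1 alone, at 0.572 of the control mean within its set. With IL-6 Csf1r was not called, with a log2 fold change of -0.03 and a 95% confidence interval from -0.65 to 0.60. IL-6 against IL-4 gave 1.21 ± 0.27 (adjusted p = 0.0104), and within the second set the IL-6 mean was 2.60 times that of IL-4 #2 and #3. That call, too, fell short of the fold threshold without IL-4 #3 (0.88) and with the length trend removed (0.93).

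Csf1, which encodes the CSF-1 that was also added to every culture as protein, was also lowest in the IL-4 libraries. Over all 9 libraries it stood 82.9- to 153-fold below its receptor in the same library. It lies on chromosome 3 (GRCm38, chr3:107741048-107760469, minus strand). It measured 6.34, 4.70 and 4.94 FPKM in control, 2.88, 3.63 and 2.03 FPKM with IL-4 and 4.31, 5.64 and 5.12 FPKM with IL-6. All IL-4 libraries were below all others. With IL-4 the mean was 1.87-fold lower (log2 fold change -0.91 ± 0.23, adjusted p = 0.0222), which passed the adjusted p but not the fold threshold. Over 21 alternatives the log2 fold change ran from -1.10 to -0.68, and the adjusted p reached 0.181. Within its set, IL-4 #1 was at 0.541 of the control mean. The log2 fold change with IL-6 was -0.08, with a 95% confidence interval from -0.61 to 0.45. Il34, the other ligand of the CSF-1 receptor, had at most 3 fragments in any library.

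Part of the macrophage markers were, like Csf1r, called lower with IL-4. Of 10 markers, all above 3 fragments in every library, 5 were called lower with IL-4 (Cd14, Aif1, Fcgr1, Lyz2 and Adgre1) and Ctss was called higher. Their summed level was 18021 to 20885 FPKM in control, 11105 to 12388.5 FPKM with IL-4 and 22568.5 to 23483 FPKM with IL-6. Lyz2 alone made 14577 ± 1289, 5053 ± 634 and 18488 ± 573 FPKM of it in this order. Cd14 was the only one called with IL-6 (log2 fold change 1.27). Their part in the Csf1r values was not tested. Of the genes tested, the 3 whose centered log2 profile over the 9 libraries was nearest to that of Csf1r were Rtl5, Adgre1 (which encodes F4/80) and Ulk2, with root mean square differences of 0.0578, 0.0714 and 0.0740.

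Transcription factors known to act on Csf1r were called in both directions. Of 12 tested, 1 was called higher and 2 lower with IL-4, and their median log2 fold change was 0.11 beside -0.20 over all genes tested. Egr2, a target of STAT6, rose from 7.30 ± 0.898 to 46.3 ± 12.6 FPKM with IL-4 (log2 fold change 2.61). Irf8, which directs monocyte and dendritic cell development, fell from 43.2 ± 0.469 to 18.4 ± 3.99 FPKM (-1.25), and Fli1 fell too (-1.21). Irf8 and Fli1 were not both called without IL-4 #3, where 1 of the 12 was lower. With IL-6, Ets2 (1.75) and Cebpb (1.42) rose and Egr2 (-1.06, adjusted p = 0.0218) was called lower, a call that was lost with the replicate block (adjusted p = 0.0561). Spi1, which encodes PU.1, was not called in any comparison.

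Csf2ra encodes the α chain of the GM-CSF receptor and went the opposite way to Csf1r with IL-4. The gene is annotated on chromosome 19 (GRCm38, chr19:61223957-61228429, minus strand). The control libraries held 103, 92.4 and 105.8 FPKM, the IL-4 libraries 197, 229 and 133 FPKM and the IL-6 libraries 96.2, 85.8 and 93.9 FPKM. All IL-4 libraries were above all others. The IL-4 mean was 1.86-fold higher than control (log2 fold change 0.86 ± 0.19, adjusted p = 0.0134), just under the fold threshold. It passed that threshold without IL-4 #3 (1.08, adjusted p = 0.000166) and when libraries were rescaled by their median ratio (1.06, adjusted p = 0.00103). Over 22 alternatives the log2 fold change ran from 0.69 to 1.08, and the adjusted p reached 0.0757. Within its set, IL-4 #1 was at 1.96 times the control mean. IL-6 differed from control by -0.13, with a 95% confidence interval from -0.57 to 0.31, and IL-6 against IL-4 gave -0.99 ± 0.19 (adjusted p = 0.00552). Synj2, Idh3a and Itgb2 had the nearest profiles (root mean square differences 0.114, 0.114 and 0.118).

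Csf2rb encodes the signaling β chain shared by the GM-CSF, IL-3 and IL-5 receptors and was higher with both cytokines. It lies on chromosome 15 (GRCm38, chr15:78325752-78353847, plus strand), next to Csf2rb2 (chr15:78282507-78305721, minus strand). Csf2rb measured 79.9, 63.4 and 65.6 FPKM in control, 135, 134 and 95.7 FPKM with IL-4 and 203, 172 and 175 FPKM with IL-6. The groups did not overlap in any pair. With IL-6 the mean was 2.63-fold higher than control (log2 fold change 1.40 ± 0.17, adjusted p = 0.00217), and with IL-4 it was 1.75-fold higher (0.79 ± 0.17, adjusted p = 0.0108), under the fold threshold. IL-6 exceeded IL-4 by 0.60 ± 0.17 on the log2 scale (adjusted p = 0.0260). Leaving out any 1 library kept the IL-6 call, with log2 fold changes from 1.33 to 1.502. With the set entered in the model the log2 fold change was 1.66 and the call was lost. That value takes the set from the IL-4 libraries alone, IL-4 #3 among them. Within the sets, IL-4 #1 was at 1.95 times the control mean and the IL-6 mean was at 1.60 times that of IL-4 #2 and #3. Uck2, C1ra and Csf2rb2 were the nearest in profile (root mean square differences 0.143, 0.145 and 0.146).

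Csf2rb2, which encodes the β chain used by IL-3 in mice, followed Csf2rb at a lower level. It was at 69.5, 52.5 and 57.2 FPKM in control, 101.3, 97.5 and 64.0 FPKM with IL-4 and 137, 121 and 120.4 FPKM with IL-6. The IL-6 libraries were above all others, while IL-4 #3 fell among the controls. With IL-6 the mean was 2.11-fold higher than control (log2 fold change 1.08 ± 0.20, adjusted p = 0.0126), and with IL-4 it was not called (0.53 ± 0.20, adjusted p = 0.0832). The IL-6 call was close to both thresholds. It was lost in 5 of the 9 fits that left out 1 library, where adjusted p-values reached 0.0631. It was lost, too, once the set entered the model (1.44), with the set taken from the IL-4 libraries alone. The β genes share sequence, and reads from shared stretches can be split between them by the counting. In the M21 transcripts, 12.3% of the distinct 50-base words of Csf2rb also occurred in Csf2rb2, and 18.4% of those of Csf2rb2 occurred in Csf2rb. Over 100 bases the shares were 4.63% and 6.82%. Csf2rb was counted over 4764 bases of exon but has 7277 in M21, so its share over the counted bases can be higher. The level of Csf2rb over that of Csf2rb2 was 1.15 to 1.21 in control, 1.34 to 1.497 with IL-4 and 1.43 to 1.48 with IL-6.

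The upstream sequences of Csf2ra and Csf2rb2, chains of different receptors, are shown because Csf2ra was higher with IL-4 and Csf2rb2 with IL-6. Each is the 250 bases before the annotated start in RefSeq (GRCm38.p6), 5′ to 3′ on the gene's strand, at chr19:61228419-61228668 for Csf2ra and at chr15:78305722-78305971 for Csf2rb2, both on the minus strand. Capitals mark a match to TTCNNNGAA.
Csf2ra: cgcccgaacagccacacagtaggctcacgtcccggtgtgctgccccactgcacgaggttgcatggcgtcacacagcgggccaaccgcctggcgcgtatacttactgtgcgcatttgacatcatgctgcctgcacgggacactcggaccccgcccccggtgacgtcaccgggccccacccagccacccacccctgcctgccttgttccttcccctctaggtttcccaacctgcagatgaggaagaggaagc
Csf2rb2: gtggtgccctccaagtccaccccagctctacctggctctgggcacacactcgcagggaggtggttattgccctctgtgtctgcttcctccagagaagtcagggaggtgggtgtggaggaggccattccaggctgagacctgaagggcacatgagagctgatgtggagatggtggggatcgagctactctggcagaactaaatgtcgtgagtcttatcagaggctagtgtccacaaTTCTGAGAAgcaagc

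These upstream windows were searched on both strands for TTCNNNGAA, the spacing that STAT3 and STAT5 are known to prefer, for the same half-sites set 4 bases apart, the wider spacing of STAT6, and for GAGGAAGT, a core of PU.1 sites. The windows of 7 of the 9 genes were searched. The only match was TTCTGAGAA in Csf2rb2, from base -15 to base -7 before the start. Of 32851 promoters of the same length, 7.02% held TTCNNNGAA, 5.85% held the wider spacing and 2.44% held GAGGAAGT. The match is a description of the letters and does not show that a factor binds there. Csf2rb had no entry.

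Taken per library, the ratio of β to α chain separated IL-6 from both other groups. Csf2rb over Csf2ra was 0.774, 0.686 and 0.620 in control, 0.686, 0.586 and 0.718 in the IL-4 libraries and 2.11, 2.01 and 1.87 in the IL-6 libraries. The IL-4 and control libraries overlapped in this ratio, although both genes were higher with IL-4. Csf2rb2 over Il3ra, the chains used by IL-3, was 5.56, 2.98 and 3.62 in control and 17.4, 13.3 and 14.1 in the IL-6 libraries. In the IL-4 libraries it was 7.82, 6.85 and 1.88. Csf1r over Csf2ra, the CSF-1 receptor against the GM-CSF receptor α chain, separated IL-4 instead. This ratio was 7.28, 6.21 and 5.38 in control, 1.83, 1.34 and 1.26 in the IL-4 libraries and 6.84, 6.68 and 6.54 in the IL-6 libraries. A ratio within a library does not change when the library is rescaled.

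**Figure D4:**
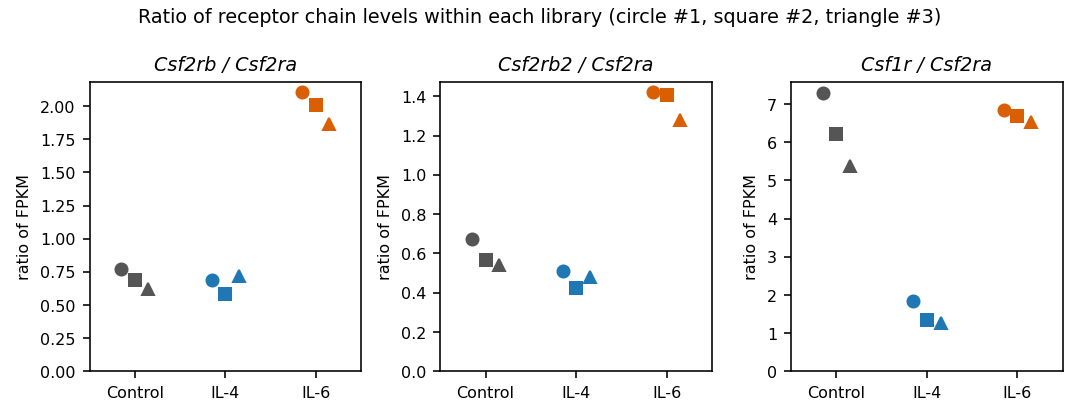
Ratios of FPKM within each library (vertical axis, from 0) for Csf2rb over Csf2ra, Csf2rb2 over Csf2ra and Csf1r over Csf2ra, by group and replicate. The IL-6 libraries lie at 1.87 to 2.11 for Csf2rb over Csf2ra, and the IL-4 libraries lie at 1.26 to 1.83 for Csf1r over Csf2ra.

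Monocyte markers moved with the β genes in the IL-6 libraries. Of 7 markers, 6 were called higher with IL-6, led by Vcan (log2 fold change 5.10) and Ccr2 (3.43). Vcan was at 0.0864 FPKM in control, 0.122 FPKM with IL-4 and 6.24 FPKM with IL-6, so it passed the filter through the IL-6 libraries alone. The summed level of the markers was 299 to 442 FPKM in control and 799.6 to 911 FPKM with IL-6. With IL-4 the sum was 14190.2 to 18020.2 FPKM, of which Chil3 alone made 15936 ± 1980 FPKM, and 2 markers were called higher and 3 lower. No marker was at 0 in any library. Their part in the β chain values was not tested.

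Il3ra, which encodes the α chain of the IL-3 receptor, was lowest in the IL-6 libraries. It lies on chromosome 14 (GRCm38, chr14:14346275-14356011, plus strand). It measured 12.5, 17.6 and 15.8 FPKM in control, 12.96, 14.2 and 34.1 FPKM with IL-4 and 7.87, 9.10 and 8.53 FPKM with IL-6. IL-4 #3 was the highest of the 9 libraries, and the IL-6 libraries were below all others. With IL-4 the gene was not called (log2 fold change 0.28 ± 0.34, adjusted p = 0.576), and without IL-4 #3 the sign turned (-0.16). IL-6 against control gave -0.83 ± 0.34 (adjusted p = 0.210). IL-6 against IL-4 was called (-1.11 ± 0.34, adjusted p = 0.0363), but without IL-4 #3 the log2 fold change was -0.67 (adjusted p = 0.00759), under the fold threshold. That call was lost in 9 of 22 alternatives. Cst3, Polr2f and Ebpl had the nearest profiles (root mean square differences 0.106, 0.113 and 0.116).

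Csf3r, the receptor of the neutrophil growth factor G-CSF, showed the largest change of the 9 genes. It lies on chromosome 4 (GRCm38, chr4:126024550-126044440, plus strand). Controls stood at 117, 100.6 and 105.9 FPKM, the IL-4 libraries at 31.3, 30.1 and 16.3 FPKM and the IL-6 libraries at 142, 133 and 137 FPKM. The libraries of the 3 groups did not overlap. With IL-4 the mean was 4.17-fold lower than control (log2 fold change -2.11 ± 0.23, adjusted p = 0.000426), and IL-6 against IL-4 was 5.29-fold higher (2.46 ± 0.23, adjusted p = 0.000135). Both calls were kept under each of 22 alternatives, with log2 fold changes from -2.28 to -1.78 and from 2.16 to 2.62. IL-4 #1 was at 0.290 of the control mean within its set, and the IL-6 mean was 5.91 times that of IL-4 #2 and #3 in the other. The higher level with IL-6 than in control was not called (0.35 ± 0.23, adjusted p = 0.470). Of the distinct 50-base words of Csf3r, 10.5% occurred in other genes, and over 100 bases the share was 0.376%. The nearest profiles were those of C5ar1, which encodes a complement receptor of neutrophils and Mϕs, Tbc1d8 and Slfn8 (root mean square differences 0.111, 0.118 and 0.132).

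Neutrophil markers moved in the same direction as Csf3r. With IL-4, 12 of 13 were called lower, with Elane (log2 fold change -2.69), Camp (-2.61) and Prtn3 (-2.38) at the front and Ly6g not called. Their summed level was 5056 to 8937 FPKM in control, 2248 to 4172 FPKM with IL-4 and 8205 to 11437 FPKM with IL-6, so no IL-4 library reached a control. S100a9 alone made 3973 ± 1145, 1793 ± 806 and 5464 ± 1038 FPKM of it in this order. All 13 were above 3 fragments in every library. The count of markers called lower was 11 without IL-4 #3, 8 after median-ratio rescaling and 5 once the set entered the model. With IL-6 1 was called, Mmp8 (1.38), and against IL-4 12 were higher. Their part in the Csf3r difference was not tested.

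Kit, the receptor of stem cell factor, was near the filter and its call with IL-4 was fragile. It lies on chromosome 5 (GRCm38, chr5:75574916-75656722, plus strand). The level was 0.855, 0.767 and 0.892 FPKM in control, 0.489, 0.352 and 0.0872 FPKM with IL-4 and 0.914, 0.959 and 0.946 FPKM with IL-6. The groups did not overlap, and IL-4 #3 was the lowest with 31 fragments. With IL-4 the mean was 2.71-fold lower (log2 fold change -1.35 ± 0.40, adjusted p = 0.0410). With the replicate number as a block the call was lost (-1.35, adjusted p = 0.0576). It was lost in 16 of 21 alternatives, among them without IL-4 #3 (-0.86, adjusted p = 0.0132) and without a filter (adjusted p = 0.0726). Another was the set term (-0.67), which rests on IL-4 #1 alone, at 0.584 of the control mean within its set. With IL-6 Kit was not called against control (0.15, 95% confidence interval from -0.77 to 1.07), and IL-6 against IL-4 was called (1.498 ± 0.40, adjusted p = 0.0217). That call was lost in 6 of 21 alternatives. Trim34a, Fam117a and Map4k2 had the nearest profiles (root mean square differences 0.111, 0.128 and 0.135).

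Flt3, the receptor of FLT3 ligand on progenitors and dendritic cells, was the lowest of the 9 genes in control. It lies on chromosome 5 (GRCm38, chr5:147330741-147400489, minus strand). Its level was 0.552, 0.513 and 0.540 FPKM in control, 0.412, 0.327 and 0.215 FPKM with IL-4 and 0.246, 0.426 and 0.391 FPKM with IL-6. Controls were above all treated libraries, and the treated groups overlapped. In the fit without a filter the difference from control on the log2 scale was -0.63 ± 0.27 for IL-4 (adjusted p = 0.209) and -0.51 ± 0.27 for IL-6 (adjusted p = 0.464), so no difference was called at this depth.

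Marker lists that include cell types known to carry Kit or Flt3 did not follow a single direction. Of 6 tested mast cell and basophil markers, 5 were called higher with IL-4, led by Fcer1a (log2 fold change 2.60) and Mcpt8 (2.39). Kit was lower there, but this list does not separate mast cells from basophils, so its markers need not come from cells that carry Kit. Their sum over 10 markers was 7.99 to 15.9 FPKM in control, 32.8 to 50.8 FPKM with IL-4 and 6.17 to 14.6 FPKM with IL-6, and the mast cell proteases Tpsb2 and Mcpt4 were at 0 in all 9 libraries. Cma1, the mast cell chymase, was at 0 in the control and IL-6 libraries and had 10 to 29 fragments in the IL-4 libraries. Of 6 stem and progenitor markers tested, 3 were called higher with IL-6 (Ly6a, Cd34 and Gata1), and with IL-4 Procr was called higher and Myb lower. Among these markers, Cd34 passed the filter through the IL-6 libraries alone. The sums over 8 such markers were 6.86 to 8.78 FPKM in control, 8.51 to 9.53 FPKM with IL-4 and 29.8 to 43.5 FPKM with IL-6, with none at 0. Ly6a alone made 2.11 ± 0.254, 2.14 ± 1.03 and 25.2 ± 5.21 FPKM of it in this order. Of 5 dendritic cell markers tested, Batf3 was called higher and Siglech lower with IL-4, and Clec10a was called lower with IL-6. Sums over 10 dendritic cell markers were 54.2 to 65.2, 67.8 to 149.99 and 15.9 to 23.8 FPKM in the same order. The part of these cells in the Kit and Flt3 values was not tested.

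The ligands of these receptors, other than Csf1, were mostly at or near 0. Csf2, which encodes GM-CSF, had 1, 0 and 0 fragments in control, 5, 15 and 14 fragments with IL-4 and 1, 1 and 0 fragments with IL-6, so all IL-4 libraries and no other passed 3 fragments. Csf3, which encodes G-CSF, had 0 fragments in each control, 2, 0 and 0 in the IL-4 libraries and 2, 5 and 5 in the IL-6 libraries. At this depth 3 fragments of Csf2 correspond to 0.0940 to 0.125 FPKM. Il3 and Il5 had at most 2 fragments in any library, Thpo was above 0 in Control #3 alone (0.0155 FPKM), and Epo was at 0 in all. Kitl, which encodes stem cell factor, the ligand of KIT, measured 1.71, 1.18 and 2.07 FPKM in control, 8.20, 6.06 and 1.58 FPKM with IL-4 and 0.480, 0.995 and 1.13 FPKM with IL-6. IL-4 #3 fell among the controls, and Kitl was not called with IL-4 (log2 fold change 1.36, adjusted p = 0.129), but was called without IL-4 #3 (2.06, adjusted p = 0.00300). Kitl was called lower in IL-6 than in IL-4 (-2.26 ± 0.58, adjusted p = 0.0189). That call was lost without IL-4 #2 (adjusted p = 0.0580), without IL-6 #1 (adjusted p = 0.0716) and with only the groups compared (adjusted p = 0.0532). Flt3l was not called in any comparison.

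Receptors of related factors were called in both directions with IL-4. Of 4 that passed the filter, 2 were called higher and 2 lower with IL-4. Fgfr1, a fibroblast growth factor receptor, rose from 0.277 ± 0.0942 to 5.70 ± 1.43 FPKM (log2 fold change 3.94) and passed the filter through the IL-4 libraries alone. Sdc1, a heparan sulfate proteoglycan, rose from 6.86 ± 0.986 to 45.0 ± 7.78 FPKM (2.69). Epor, the erythropoietin receptor, fell from 4.74 ± 1.21 to 0.505 ± 0.0519 FPKM (-2.97). Il5ra, the IL-5 receptor α chain that pairs with the Csf2rb product, had 1 to 22 fragments per library and was below the filter, as were Ptprz1, Pdgfra and Pdgfrb.

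Behind the receptors, kinases and adaptors of the CSF-1 and GM-CSF receptors shifted with IL-4. Of 25 tested, 6 were called lower and 3 higher, with a median log2 fold change of -0.64 beside -0.20 over all genes tested. Gab3, an adaptor of CSF1R, fell from 3.37 ± 0.404 to 0.800 ± 0.274 FPKM (log2 fold change -1.99). Pik3r1, a PI3K regulatory subunit, fell (-1.37), and the kinase Fyn rose (1.80). Without IL-4 #3, 4 of the 25 were lower and 3 higher. With IL-6 3 were called higher and 0 lower, with a median of 0.21 beside -0.00 over all genes. These were the kinases Fgr (9.63 ± 0.423 to 47.8 ± 0.774 FPKM, 2.30) and Src (2.23) and the adaptor Gab1 (1.16).

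Negative regulators of these receptors included the largest changes among the pathway genes. Of 21 tested, 7 were called higher and 3 lower with IL-4, with a median log2 fold change of 0.22 beside -0.20 over all genes. Socs1 rose from 1.35 ± 0.132 to 26.9 ± 5.12 FPKM (4.20), Cish from 0.531 ± 0.152 to 9.71 ± 2.58 FPKM (3.95) and Socs2 from 0.275 ± 0.0344 to 2.73 ± 0.494 FPKM (2.91), all suppressors of cytokine signaling. Cblb, a ubiquitin ligase, rose as well (2.71). Without IL-4 #3, 7 were higher and 1 was lower. With IL-6 2 of the 21 were called, both higher. Socs3, the feedback inhibitor of STAT3 signaling that also acts on the G-CSF receptor, rose from 2.27 ± 0.653 to 80.4 ± 5.42 FPKM (5.12), and Spred1 rose (1.44).

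Genes known as STAT5 targets of GM-CSF and IL-3 are also targets of other cytokines, and 5 of 12 tested were called higher and 2 lower with IL-4. Cish and Socs2 belong to this list too, and beside them Ccl22 (log2 fold change 3.75) and Myc (2.38) rose. Socs2 and Ccl22 passed the filter through the IL-4 libraries alone. The median was 0.38 beside -0.20 over all genes. Pim1 was the only one called with IL-6, where it rose from 17.4 ± 0.610 to 42.3 ± 3.00 FPKM (1.28). Genes that depend on CSF-1 in Mϕs went both ways. With IL-4, 4 of 13 were called higher, among them Ccl7 (3.99) and Ccl2 (3.00), and 3 lower, among them Maf (-3.71) and Cd14 (-2.53). With IL-6, 5 were called higher, led by Ccr2 (3.43), Fos (1.45) and Egr1 (1.38), and Plau was called lower (-1.94). The median log2 fold changes over this list were 0.56 in both comparisons. In the IL-6 comparison the counts of these lists fell with a set term, where 5 pathway genes in all were called in place of 16. Between the cytokines 41 pathway genes were called, among the kinases and adaptors 9 higher with IL-6 and 1 lower, among them Fgr (3.26) and Pik3ap1 (2.42).

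**Figure D5:**
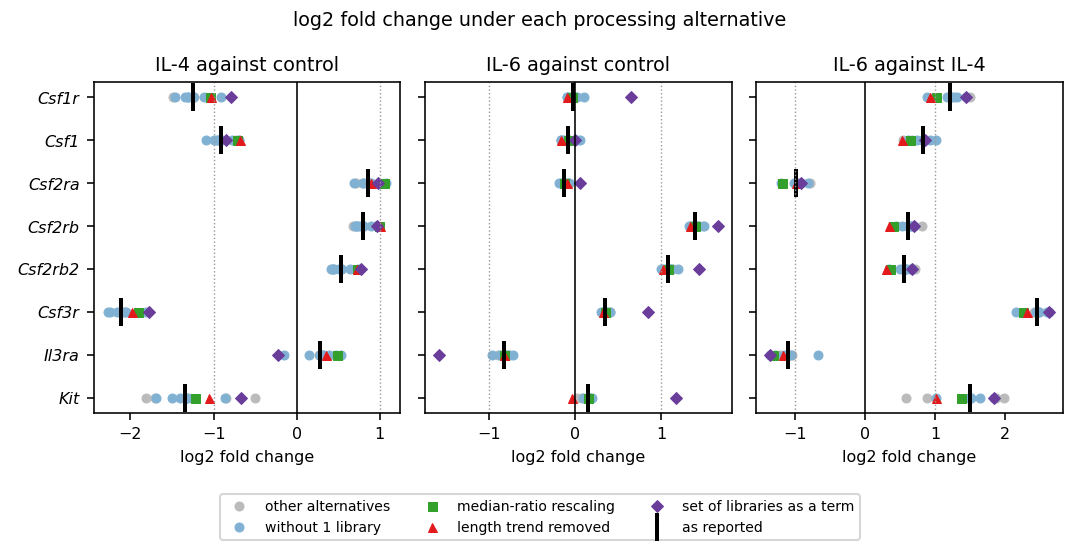
Log2 fold change of the 8 tested genes (horizontal axis) in the 3 comparisons, as reported (black bar) and under each processing alternative, with the set term, the removed length trend and median-ratio rescaling marked. Csf3r stays between -2.28 and -1.78 with IL-4, and Kit spreads from -1.82 to -0.50.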

How the data were processed

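The 9 genes and the gene lists were chosen with earlier results of these data known. The authors deposited FPKM per gene for 9 libraries made with a stranded mRNA kit, and the labels name STAR 2.4.2a, Cufflinks 2.2.1 and GRCm38. FPKM steps gave whole fragments within 0.05 for 100.0% of 183346 values above 0 in the 50604 genes matched with version to GENCODE M21 (94.8%), so library totals could be read from them (29988160 to 39909571). Whole fragments are not what Cufflinks estimates, so the program that made the table is not settled. Csf1r, Csf2ra, Csf2rb and Csf2rb2 matched M21 under another version, and their exon lengths were read from the values. Fragment floors (3) cover counting error only.

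Log2(FPKM + 0.1) of 12824 genes was fitted in 3 groups with limma 3.58.1 in R 4.3.3 (eBayes with trend and robust). All adjusted p-values in the text are from limma. Errors are SD, or SE for log2 fold changes. The script was tested on simulated data. Alternatives were other pseudocounts (0.01 and 1), filters, scalings and thresholds, limma-voom on the fragments, a replicate block, a set term, each library left out and, chosen after seeing the data, removal of each library's length trend by a spline. Columns are numbered by mouse, and the design names 3 mice, so the numbers were taken to pair the samples in the replicate block. The reported fit and the permutation tests did not use this pairing. Same-numbered deviations correlated at 0.521, -0.415 and 0.0777 between IL-4 and control, 0.408, 0.201 and 0.166 between IL-6 and control and 0.281, -0.0612 and 0.153 between IL-6 and IL-4. Named genes are the 9, the related ligands and receptors, at most the 4 largest called genes per list and comparison, and the 3 nearest profiles. Sequences are from RefSeq. Results of 2 listed genes that are not members are not reported here, and they remain in the counts of their lists.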

Additional observations from a re-analysis of the deposited data

How the results depend on the processing

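Counts of the tested genes called depended on the fit. Between IL-4 and control, 3 were called, against 1 with only the groups compared, 1 with the set of libraries in the model (set term) and 6 by the adjusted p alone. Between IL-6 and control, 2 were called, against 0 with the set term, and 1 to 2 when a library was left out. Between IL-6 and IL-4, 4 were called, against 2 with only the groups compared, 7 by the adjusted p alone and 2 to 5 when a library was left out. Pathway genes called between IL-6 and control were 16, against 5 with the set term and 9 to 19 without a library. After quantile normalization, 4 genes in place of 7 did not overlap between IL-4 and control. Signs turned in values that were not called. Il3ra with IL-4 was -0.22 with the set term and -0.16 to 0.54 without a library. With IL-6, Csf1r was 0.64 with the set term, 0.0094 after quantile normalization and -0.10 to 0.10 without a library. Csf1 was 0.0024 and Csf2ra 0.050 with the set term, Csf1 ranged from -0.17 to 0.050 without a library, and Kit was -0.039 with the length trend removed. The causes were not tested. The replicate block changed 1 call, that of Kit with IL-4 (-1.35, adjusted p = 0.0576), and no other call of the 8 genes. Among the other listed genes outside the intestinal list, those of Egr2 with IL-6 (adjusted p = 0.0561) and of Mpo (0.0587) and Ear6 (0.0541) with IL-4 were lost, and Mertk (0.0446) and Retnlg (0.0395) became called between the cytokines.

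Median-ratio rescaling moved the median of all genes by over 0.1 in both comparisons with the IL-4 libraries, and no called gene of the 8 changed direction under any alternative. With 3 libraries a group, Kit and Flt3 rest on the fewest fragments.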

Other observations

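Eosinophils depend on IL-5, whose receptor uses the Csf2rb product. Of 6 eosinophil markers tested, 4 were called lower in the IL-4 libraries and 3 in the IL-6 libraries. Siglecf, a surface lectin of eosinophils, was not called with IL-4, at 1.33 ± 0.0600 FPKM in control and 2.75 ± 1.31 FPKM in the IL-4 libraries, and 1 of the 6 was called higher with IL-4 without IL-4 #3 and after median-ratio rescaling. Prg2, which encodes the granule major basic protein, fell from 119.996 ± 48.1 FPKM in control to 14.5 ± 1.93 FPKM in the IL-4 libraries (log2 fold change -2.95) and 20.9 ± 4.33 FPKM in the IL-6 libraries (-2.44). The sums over 7 markers were 75.5 to 174 FPKM in control, 18.2 to 24.6 FPKM in the IL-4 libraries and 19.9 to 31.7 FPKM in the IL-6 libraries. With the set term 2 were lower in the IL-4 comparison and 0 in the IL-6 comparison. The comparisons share the control libraries.

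Of 3 lymphocyte markers tested, 0 were called by limma in any comparison, and no stromal marker passed the filter.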
